A study of Mus musculus with 6 samples.

Results

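Sets of transcripts are used to tell kidney-resident macrophages from incoming monocytes. Followed here were 8 genes used in this way: Adgre1, Cd81, Maf, Vsig4, Folr2, Lyve1, Cbr2 and Tmem119. They were taken from the table of read counts by gene symbol, 8 of 46603 genes, and all 8 had enough reads to be tested among 15440 genes. The libraries are from CD11B+ cells, the myeloid fraction that carries integrin alpha M, pulled from mouse kidneys with antibody-coated beads. Both genotypes carry the allele Rosa26-LSL-RARaT403X, a dominant negative retinoic acid receptor kept silent by a stop cassette. In PTEC DN RAR mice (genotype PEPCK CRE+) a Cre driven by the PEPCK promoter, used to reach proximal tubular epithelial cells (PTECs), releases it, and Cre- controls (PEPCK CRE-) lack the recombinase. The mice were males of 10 to 12 weeks whose renal pedicles were both clamped for 28 minutes, with kidneys taken on day 3, and each genotype has 3 libraries, counted here as 3 mice. All 6 libraries are from injured kidneys.

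Resident macrophages seed the kidney before birth and are kept up locally, whereas monocytes enter from blood after injury and can take on part of the resident program. Adgre1 encodes F4/80, an adhesion receptor that is highest on the resident population, and Cd81 encodes a tetraspanin, a membrane scaffold protein, used to find these cells in single-cell data. Maf encodes c-Maf, a bZIP transcription factor of mature macrophages. Folr2 (folate receptor beta) and Lyve1 (a hyaluronan receptor) mark a self-maintaining macrophage subset found near vessels in many organs, Vsig4 encodes a receptor for complement C3 fragments, Cbr2 a carbonyl reductase, and Tmem119 a membrane protein best known from microglia.

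Reads counted to genes ranged from 29318041 to 46517005 per library, and mitochondrial transcripts took 5.03% to 8.77% of them in Cre- controls and 10.4% to 12.1% in PTEC DN RAR mice. Levels are CPM, reads scaled to a common library size, after TMM scaling, which sets libraries level on the bulk of their genes. At this depth 3 reads, the most that a count of 0 allows, correspond to between 0.0636 and 0.101 CPM per library, for counting error only. Rara, the gene on which the transgene is based, measured 35.3 to 45.4 CPM in Cre- controls and 30.8 to 37.6 CPM in PTEC DN RAR mice, and the transgene has no entry of its own. Myeloid identity was checked on 8 defining markers (Itgam, Itgb2, Cd68, Lyz2, Tyrobp, Fcer1g, Cybb and Spi1), none of which was absent. Their summed level was 19850 to 21511 CPM in Cre- controls and 13288 to 15717 CPM in PTEC DN RAR mice. By edgeR 3 of the 8 were lower, where 17.1% of all genes were. Itgam, the gene of the selected antigen, was among these 3, with a log2 fold change of -0.64 (adjusted p = 0.00818, edgeR). With the pan-leukocyte scaling described below 1 of the 8 was lower, Itgam, against 4.59% of all genes. The calls of Cd68 and Lyz2 were lost (adjusted p = 0.189 and 0.0564, edgeR).

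Promoters are shown first, for members that differed in their direction or level. Windows from RefSeq on GRCm38.p6, 250 bases before to 50 bases after the transcript start, were found for 4 members (Cd81, Folr2, Cbr2 and Vsig4), with 5 windows in all because Folr2 has a pair of starts. The set of windows used held none for Adgre1, Maf, Lyve1 and Tmem119, so their promoters were not looked at. Printed here are the parts upstream of the transcribed region for the gene that rose most, the gene that fell most and the complement receptor gene. Capitals mark TGCTGA (a half-site of a Maf recognition element) or GAGGAA (an ETS motif of the kind PU.1 binds), on either strand, and the strand read is that of the gene.
Cd81, chr7:143052500-143052738, plus strand: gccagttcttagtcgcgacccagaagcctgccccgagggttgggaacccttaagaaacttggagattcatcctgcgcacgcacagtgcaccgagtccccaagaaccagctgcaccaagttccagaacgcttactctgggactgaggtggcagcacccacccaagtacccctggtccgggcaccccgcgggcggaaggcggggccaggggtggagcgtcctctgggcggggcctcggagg
Folr2, chr7:101857195-101857440, minus strand: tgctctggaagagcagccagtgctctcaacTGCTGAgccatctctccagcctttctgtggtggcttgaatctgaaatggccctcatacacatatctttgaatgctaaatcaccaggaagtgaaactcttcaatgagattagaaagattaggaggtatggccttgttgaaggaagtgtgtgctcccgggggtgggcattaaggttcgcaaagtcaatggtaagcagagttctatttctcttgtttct
Vsig4, chrX:96293439-96293688, minus strand: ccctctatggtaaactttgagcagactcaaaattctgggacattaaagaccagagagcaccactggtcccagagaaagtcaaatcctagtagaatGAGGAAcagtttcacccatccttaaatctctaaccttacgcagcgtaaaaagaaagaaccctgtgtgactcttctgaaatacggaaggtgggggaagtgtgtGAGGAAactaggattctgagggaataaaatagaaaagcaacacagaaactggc

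Over whole windows, TGCTGA or its reverse complement was in both Folr2 windows, in the Cbr2 window and in the Vsig4 window, and was not in the Cd81 window. It was in 19.5% of all 32851 windows. GAGGAA was in the Vsig4 window at 2 places and in the Cbr2 window at 1 place, against 28.3% of all windows. AGGTCA, the repeat unit of elements that retinoid receptors bind, was in none of the 5 windows and in 16.3% of all. These matches are letters in a window and were not tested as sites.

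The comparison of PTEC DN RAR with Cre- control libraries asks whether transcripts used to identify resident macrophages differ in the CD11B+ fraction after injury. They did not move together. Of the 8 members, 2 were higher (Cd81 and Tmem119), 3 were lower (Folr2, Cbr2 and Maf) and 3 did not pass (Adgre1, Vsig4 and Lyve1). The call was an adjusted p under 0.05 in the quasi-likelihood test of edgeR. Over all genes tested the same test called 40.6%, with 23.6% higher and 17.1% lower, so a call by itself was common in these libraries. In 5 members no library of one genotype reached the values of the other, against 53.4% of all genes (29.2% higher and 24.2% lower). Scaled on 22 genes expressed by all leukocytes (Ptprc, Coro1a, Laptm5 and others) in place of TMM, the members gave the same counts of 2 higher and 3 lower, against 30.8% of all genes higher and 4.59% lower. With TMM scaling these 22 genes summed to 14131 to 15241 CPM in Cre- controls and 11486 to 13400 CPM in PTEC DN RAR mice. By edgeR 7 of them were lower, a count that ran from 3 to 8 with each library left out. The median log2 fold change of the members was -0.97 and that of all genes was 0.04. The member median lies between Lyve1 (-1.38) and Maf (-0.56) and is not a shift shared by the set. Vsig4 and Lyve1, which did not pass and varied most between libraries, both count in it. In bulk libraries fewer cells of a type and less RNA per cell cannot be told apart.

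**Figure D1:**
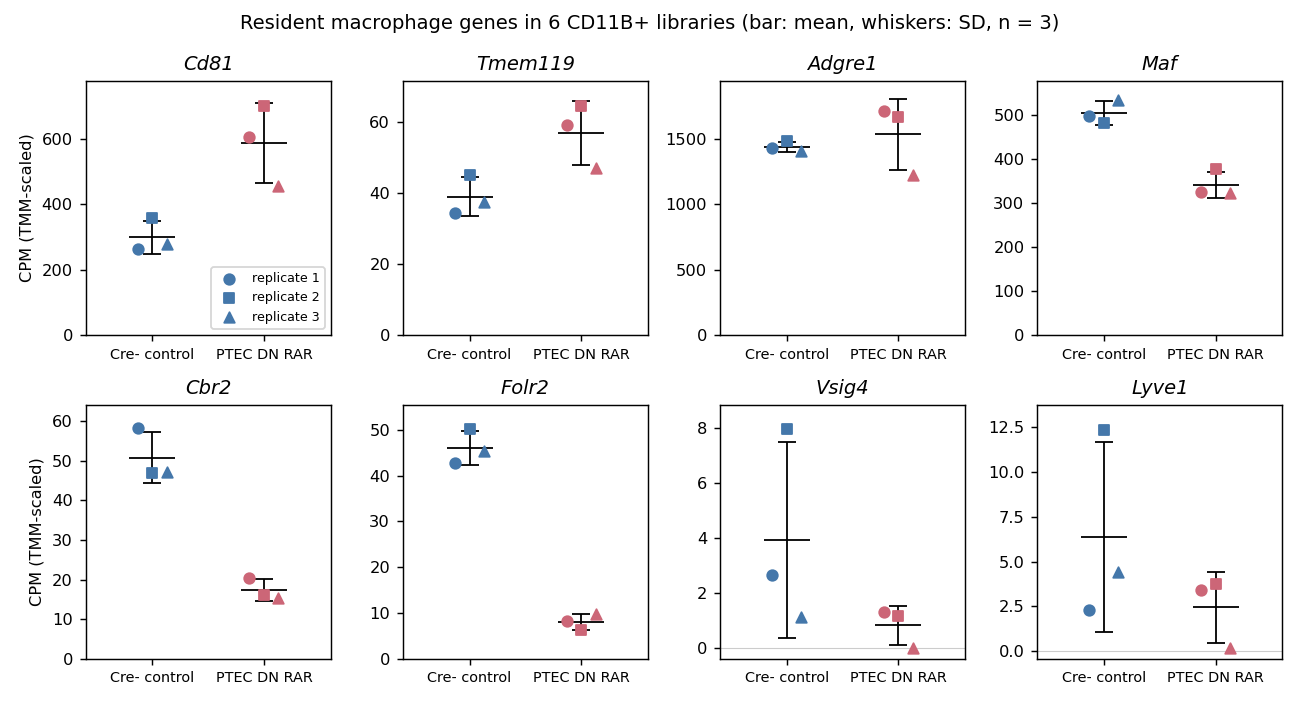
Level of each member in CPM after TMM scaling, on linear axes, in 3 Cre- control (blue) and 3 PTEC DN RAR (red) libraries, with marker shapes for replicate numbers, a bar for the mean and whiskers for the SD. All PTEC DN RAR points lie above the controls for Cd81 and Tmem119, Maf, Cbr2 and Folr2 are lower in every one, and the genotypes overlap in Adgre1, Vsig4 and Lyve1.

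Adgre1 was by far the most abundant member. It measured 1434, 1485 and 1406 CPM in Cre- controls and 1712, 1670 and 1225 CPM in PTEC DN RAR mice. PTEC DN RAR replicates 1 and 2 lay above every control and replicate 3 below every control, so the groups overlapped. The fitted log2 fold change was 0.09, with a standard error of 0.14 and a 95% interval of -0.22 to 0.41 (adjusted p = 0.626, edgeR). Without PTEC DN RAR replicate 3 the log2 fold change of Adgre1 was 0.19 (adjusted p = 0.184, edgeR), and without PTEC DN RAR replicate 1 it was 0.0044 (adjusted p = 0.986, edgeR). With scaling on the pan-leukocyte genes it was 0.29 (adjusted p = 0.0705, edgeR) and the genotypes no longer overlapped, as in 50% of all genes under that scaling, while the median of all genes moved from 0.04 to 0.24.

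Cd81 rose. Its levels were 262, 356 and 279 CPM in Cre- controls and 605, 698 and 455 CPM in PTEC DN RAR mice. Every PTEC DN RAR library was above every control, and the mean was 1.96-fold higher. The fit gave 0.97 on the log2 scale, with a standard error of 0.17 and a 95% interval of 0.58 to 1.37 (adjusted p = 0.00334, edgeR), and 1.17 with scaling on the pan-leukocyte genes. The gene (ENSMUSG00000037706) is annotated at 143052739 to 143067934 on chromosome 7 (GRCm38). R74862 overlaps it on the other strand and had 20 to 29 reads in Cre- controls and 49 to 105 in PTEC DN RAR mice, few beside the 8810 to 29622 reads of Cd81. CD81 protein is also found on many cells outside the macrophage lineage, so the markers of such cells are given below.

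Tmem119 rose less. It measured 34.4, 45.0 and 37.4 CPM in Cre- controls and 59.2, 64.5 and 47.1 CPM in PTEC DN RAR mice. The genotypes were separated only by the step from control replicate 2 to PTEC DN RAR replicate 3. On the log2 scale the rise was 0.55, with a standard error of 0.14 and a 95% interval of 0.23 to 0.87 (adjusted p = 0.0151, edgeR). This call was lost without Cre- control replicate 3 (0.47, adjusted p = 0.0773, edgeR) and without PTEC DN RAR replicate 2 (0.45, adjusted p = 0.0517). Tmem119 (ENSMUSG00000054675, chromosome 5 from 113793729 to 113800516) thus showed the direction of Cd81 at a smaller size, and in both genes PTEC DN RAR replicate 2 was the highest library and replicate 3 the lowest of its genotype.

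Folr2 fell most among the members that passed. Its levels were 42.8, 50.1 and 45.3 CPM in Cre- controls and 8.34, 6.24 and 9.71 CPM in PTEC DN RAR mice. The highest PTEC DN RAR library was far below the lowest control, and the control mean was 5.69-fold higher. Its log2 fold change of -2.51 had a standard error of 0.16 and a 95% interval of -2.88 to -2.14 (adjusted p = 0.000132, edgeR). Folr2 (ENSMUSG00000032725, chromosome 7 from 101839988 to 101857194) shares bases with an antisense gene, Gm10602, that had 7 to 25 reads per library.

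Cbr2 fell in the same way. It measured 58.3, 46.9 and 47.2 CPM in Cre- controls and 20.5, 16.0 and 15.3 CPM in PTEC DN RAR mice. Control replicate 1 was the highest library, and the groups were wide apart, with a control mean 2.94-fold higher. The fitted value was -1.56 on the log2 scale, with a standard error of 0.14 and a 95% interval of -1.88 to -1.24 (adjusted p = 0.000229, edgeR). Cbr2 (ENSMUSG00000025150) lies on chromosome 11 from 120729489 to 120732114.

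Maf fell by a smaller amount. It measured 499, 482 and 534 CPM in Cre- controls and 325, 377 and 322 CPM in PTEC DN RAR mice. The spread within each genotype was small beside the distance between them. Its log2 fold change was -0.56, with a standard error of 0.10 and a 95% interval of -0.79 to -0.34 (adjusted p = 0.00288, edgeR), and with scaling on the pan-leukocyte genes it was -0.36 (adjusted p = 0.034, edgeR). Maf (ENSMUSG00000055435) lies on chromosome 8 from 115682942 to 115707794, and Gm15655 on its other strand had at most 8 reads.

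Vsig4 and Lyve1 were the least abundant members and varied most between libraries of a genotype. Vsig4 measured 2.66, 7.95 and 1.14 CPM in Cre- controls and 1.29, 1.15 and 0 CPM in PTEC DN RAR mice, where replicate 3 had 0 reads. Lyve1 measured 2.31, 12.4 and 4.40 CPM in Cre- controls and 3.39, 3.77 and 0.17 CPM in PTEC DN RAR mice. In both genes control replicate 2 was the highest library and PTEC DN RAR replicate 3 the lowest, and the genotypes overlapped. For Vsig4 the fitted log2 fold change was -2.27, with a 95% interval of -4.49 to -0.05 (adjusted p = 0.0933, edgeR). Vsig4 did pass without a filter or with replicate number in the fit, as given in the last section. For Lyve1 the fitted log2 fold change was -1.38, with an interval of -3.33 to 0.58 (adjusted p = 0.229, edgeR). Without control replicate 2 these values were -1.29 for Vsig4 and -0.50 for Lyve1, and without PTEC DN RAR replicate 3 they were -1.71 and -0.86.

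**Figure D2:**
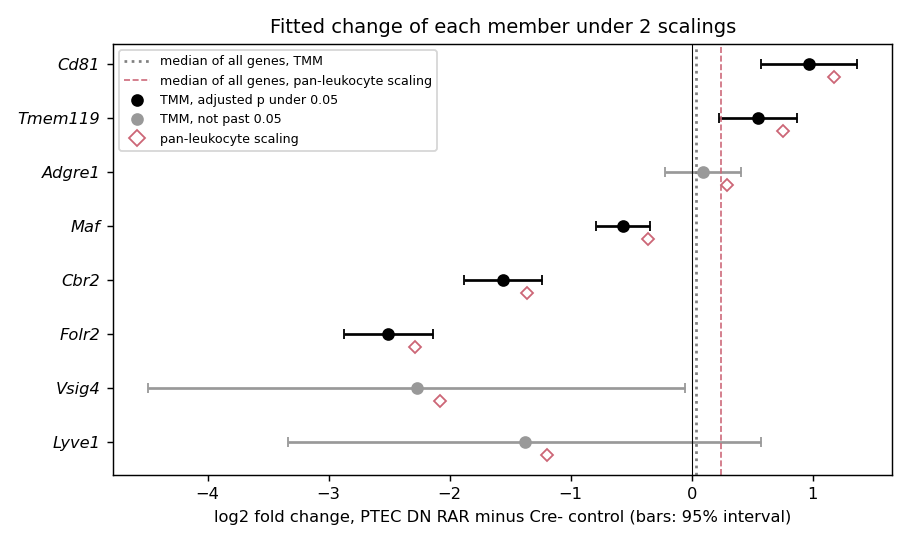
Log2 fold change of each member (PTEC DN RAR minus Cre- control) with TMM scaling (circles, bars for the 95% interval, black where the adjusted p is under 0.05) and with scaling on pan-leukocyte genes (red diamonds), beside the median of all genes under each scaling. The second scaling moves every member to the right by a like amount, and all 8 keep their sign.

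Reads of a member divided by the reads of Adgre1 in the same library do not depend on how libraries are scaled. On the log2 scale the Cd81 ratio went from -2.28 ± 0.20 in Cre- controls to -1.40 ± 0.12 with PTEC DN RAR (SD, n = 3 each, exact permutation p = 0.1). The Tmem119 ratio was -5.22 ± 0.17 and -4.75 ± 0.09, the Maf ratio -1.51 ± 0.11 and -2.16 ± 0.23, the Cbr2 ratio -4.83 ± 0.19 and -6.47 ± 0.20, and the Folr2 ratio -4.97 ± 0.09 and -7.57 ± 0.55 (SD, n = 3 each). Each of these 5 ratios was separated without overlap, as were 38.3% of the ratios of 15363 genes with a read in every library to Adgre1. The exact permutation test, two-sided, gave 0.1 for each, which is as low as 3 against 3 libraries can go, and 0.12 after adjustment over 6 ratios. The Lyve1 ratio overlapped (exact permutation p = 0.3), and the Vsig4 ratio could not be formed in the library with 0 reads.

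**Figure D3:**
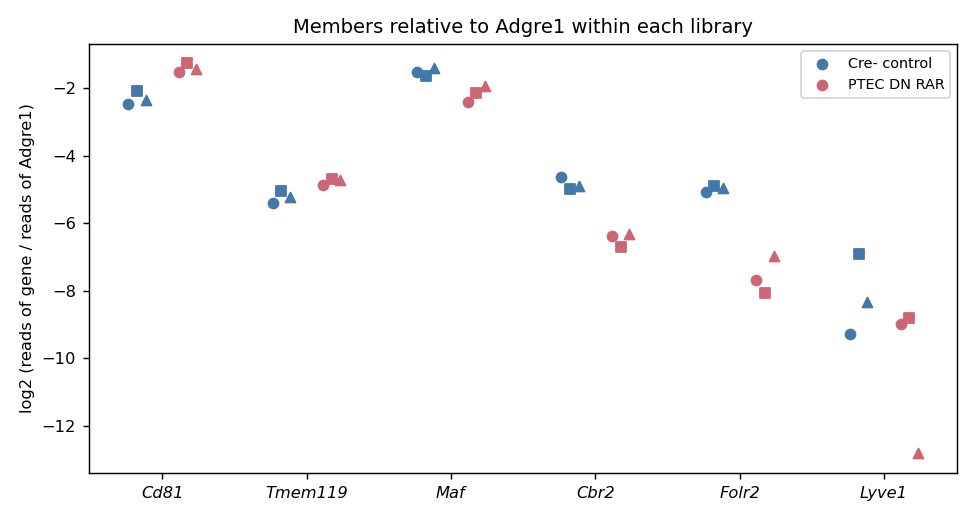
Log2 of the reads of each member divided by the reads of Adgre1, for each of 6 libraries (blue: Cre- control, red: PTEC DN RAR, shapes: replicates 1 to 3). For Cd81 and Tmem119 the red points lie above the blue ones, for Maf, Cbr2 and Folr2 below them, and Lyve1 is spread widely in both genotypes.

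Levels of different genes were compared as CPM per kilobase of exon (annotation of GENCODE M21). In Cre- controls the order was Adgre1 (445 ± 12.4 CPM per kilobase), Cd81 (104 ± 17.5), Maf (61.3 ± 3.23), Cbr2 (38.3 ± 4.89), Folr2 (29.8 ± 2.41), Tmem119 (16.8 ± 2.37), Vsig4 (2.64 ± 2.41) and Lyve1 (2.18 ± 1.82, SD, n = 3 each). In this order only Vsig4 and Lyve1 had overlapping ranges. In PTEC DN RAR mice Adgre1 (474 ± 83.4), Cd81 (204 ± 42.7) and Maf (41.4 ± 3.71) kept the first places, Tmem119 (24.6 ± 3.86) came before Cbr2 (13.01 ± 2.10) and Folr2 (5.24 ± 1.13), and Lyve1 (0.837 ± 0.678) and Vsig4 (0.549 ± 0.478) were again last and overlapped. Tmem119, which lay below Cbr2 and Folr2 in controls, was above both in every PTEC DN RAR library.

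Genes whose pattern over the 6 libraries was most like that of a member were found by the root mean square difference in log2 CPM after each gene was centred on its own mean, among 8991 genes of at least 10 CPM. For Folr2 they were the monocyte-attracting chemokine gene Ccl7 (difference 0.22) and F13a1, the coagulation factor XIII A chain made by monocytes and macrophages (0.22). F13a1, also among the infiltrating monocyte markers below, measured 586, 511 and 722 CPM in Cre- controls and 118, 104 and 136 CPM in PTEC DN RAR mice. For Cbr2 they were Cfp, which encodes the complement regulator properdin (0.16), and the chemokine gene Ccl9 (0.16). For Cd81 they were Cp, which encodes ceruloplasmin (0.08), and St3gal6, a sialyltransferase gene (0.08). Tmem119 was nearest to Ipcef1 (0.04) and Soga1 (0.05), Maf to Rgl1 and Zswim6 (0.04 each), and Adgre1 to Rhoc (0.03) and Tbc1d2b (0.04). Of the 8991 genes, 131 lay within 0.1 of Maf, 97 of Adgre1, 18 of Tmem119 and 6 of Cd81, and 0 lay as close to Folr2, Cbr2, Vsig4 or Lyve1. For Vsig4 the nearest were Cd5l, an apoptosis inhibitor secreted by tissue macrophages (0.78), and Saa3 (0.88), and for Lyve1 Cd5l (0.98) and the lipoxygenase gene Alox15 (0.98), all far less close. Cd5l had the same highest and lowest libraries, with 20.9, 60.8 and 12.4 CPM in Cre- controls and 9.37, 3.68 and 0.932 CPM in PTEC DN RAR mice. Among the members themselves the closest pair was Cd81 and Tmem119 (0.22).

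Of 20 other genes expressed by resident macrophages, 2 were higher, 7 lower and 11 did not pass, where 23.6% of all genes were higher and 17.1% lower, with a median log2 fold change of -0.34 against 0.04 for all genes. Pf4, a chemokine gene used to mark macrophages as well as platelets, fell most, from 383, 258 and 357 CPM to 39.9, 32.3 and 44.0 CPM, a log2 fold change of -3.10 (adjusted p = 0.000115, edgeR). Fcgr1, the high-affinity IgG receptor gene, fell by 0.83 and Mrc1, the mannose receptor gene, by 0.71 on the log2 scale. Slco2b1, an organic anion transporter gene, rose by 0.59 on the log2 scale, and the other gene that rose was Hpgd, a prostaglandin-degrading enzyme gene (0.54). The 3 complement C1q genes, which are among the most abundant macrophage transcripts, had log2 fold changes of 0.21 for C1qa, -0.01 for C1qb and 0.23 for C1qc, none of which passed. With scaling on pan-leukocyte genes C1qa (0.41, adjusted p = 0.0255, edgeR) and C1qc (0.43, adjusted p = 0.021, edgeR) did pass. Under that scaling 5 of the 20 were higher and 3 lower (30.8% and 4.59% of all genes), and their median was -0.13 against 0.24 for all genes. Without Cre- control replicate 3 none of the 20 was higher (0, against 2).

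**Figure D4:**
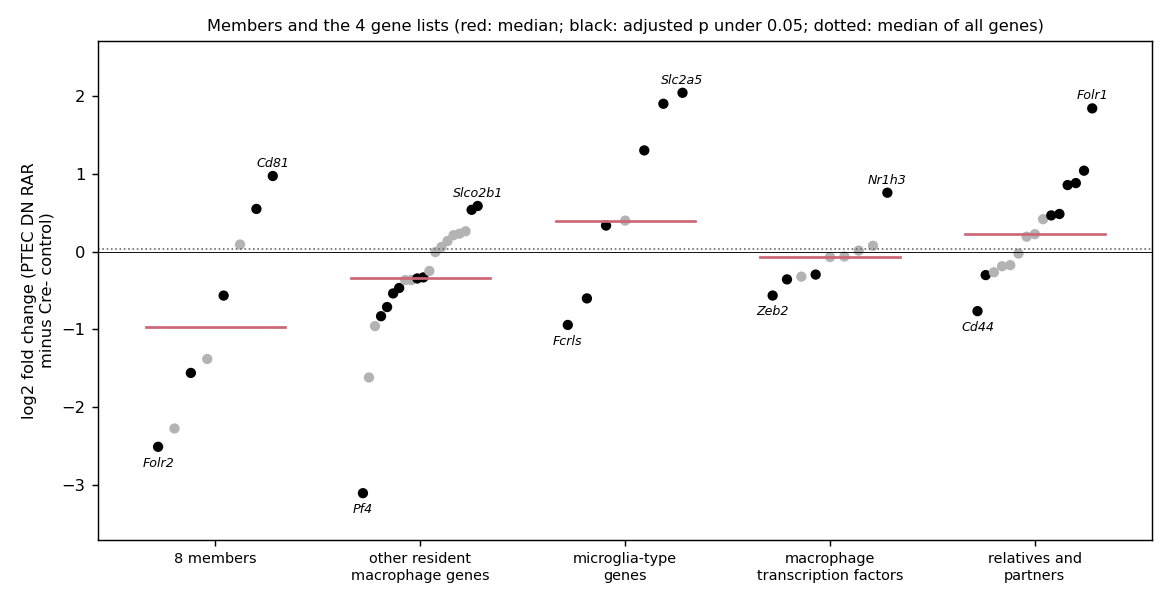
Log2 fold changes (PTEC DN RAR minus Cre- control, TMM scaling) of the 8 members and of the genes of 4 lists, 1 point per gene, black where the adjusted p is under 0.05, with red lines for medians and a dotted line for the median of all genes. Members run from Folr2 at -2.51 to Cd81 at 0.97, and the other resident macrophage genes from Pf4 at -3.10 to Slco2b1 at 0.59.

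Of 7 genes that microglia and other tissue macrophages express, the company in which Tmem119 is usually named, 4 were higher, 2 lower and 1 did not pass, again beside 23.6% and 17.1% of all genes. Slc2a5, a fructose transporter gene, rose by 2.04, Sall1, a transcription factor gene, by 1.90 and Siglech, a lectin gene at no more than 1.74 CPM, by 1.30 on the log2 scale. Olfml3 rose by 0.33, Fcrls fell by 0.94 and P2ry12, a purinergic receptor gene, fell by 0.60. Slc2a5 is also expressed by proximal tubule cells, whose markers moved the same way. Sall1, at 16.7, 14.0 and 19.9 CPM in PTEC DN RAR replicates 1, 2 and 3, had the library order of the summed thick ascending limb markers (5955, 3538 and 6876 CPM). A shared order of 3 libraries does not tell the source, and the part of tubule cells in these rises was not tested. The median of the list was 0.40. Without Cre- control replicate 2 or 3, or without PTEC DN RAR replicate 1 or 2, the higher genes of this list numbered 2.

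Of 9 transcription factor genes of macrophages, 1 was higher, 3 were lower and 5 did not pass, with a median of -0.07, and the share called over all genes was 40.6%. Nr1h3, the liver X receptor alpha gene, rose by 0.76 on the log2 scale, and its call was lost without Cre- control replicate 2 or 3 or PTEC DN RAR replicate 2 (0 higher genes in each). Zeb2, needed for macrophage identity, fell by 0.56, Mef2a by 0.36 and Mef2c by 0.29. Spi1, which encodes PU.1, had a log2 fold change of 0.01 and did not pass. The lower genes numbered 2 with library size scaling, with replicate number in the fit, and without Cre- control replicate 2 or any single PTEC DN RAR library. With scaling on pan-leukocyte genes 1 of these 9 was lower (Zeb2, -0.35) and 1 higher, and the median was 0.14.

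Of 15 relatives and partners of the members, 6 were higher, 2 lower and 7 did not pass, against 23.6% higher and 17.1% lower over all genes, with a median of 0.22. Folr1, the folate receptor alpha gene of proximal tubules, rose by 1.84 on the log2 scale, opposite to Folr2, and Slc46a1, a folate transporter gene, rose by 0.88. Stab2, a hyaluronan receptor gene of sinusoidal endothelium, rose by 1.04 at levels of at most 2.47 CPM, and the tetraspanin gene Cd82 rose by 0.85. Cd44, the main leukocyte hyaluronan receptor gene, fell by 0.76, with 352, 400 and 409 CPM in Cre- controls and 234, 223 and 226 CPM in PTEC DN RAR mice. C3, whose fragments VSIG4 binds, rose by 0.47. Without Cre- control replicate 3 the higher genes numbered 3 and the lower genes 1, and the lower genes also numbered 1 without Cre- control replicate 1 or PTEC DN RAR replicate 1 or 3. With scaling on pan-leukocyte genes 1 was lower and 8 higher, against 4.59% and 30.8% of all genes.

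Transcripts of other cells differed between the same libraries, in which 23.6% of all genes were higher and 17.1% lower. Markers of infiltrating monocytes were lower, 7 of 9 past the test, with a summed level of 2638 to 2902 CPM in Cre- controls and 1275 to 1514 CPM in PTEC DN RAR mice. Of 9 neutrophil markers 5 were lower, with sums of 467 to 842 CPM and 296 to 420 CPM. With pan-leukocyte scaling 6 of the monocyte and 4 of the neutrophil markers were lower, against 4.59% of all genes. All 10 proximal tubule markers were higher, with sums of 599 to 785 CPM and 1891 to 2998 CPM, as were all 4 markers of the thick ascending limb (1020 to 1434 CPM and 3538 to 6876 CPM) and all 9 of blood endothelium (88.6 to 132 CPM and 266 to 323 CPM). Of 6 stromal markers 4 were higher, a count that ran from 0 to 6 with each library left out (0 without Cre- control replicate 3 or PTEC DN RAR replicate 1), with sums of 58.7 to 69.2 CPM in Cre- controls and 116, 158 and 56.4 CPM in PTEC DN RAR replicates 1, 2 and 3. Among PTEC DN RAR libraries, replicate 2 was the highest and replicate 3 the lowest for the stromal sum, as for Cd81 and Tmem119. The summed levels of the 20 other resident macrophage genes and of the 7 microglia-type genes had this order too. For the proximal tubule and blood endothelium sums replicate 2 was the highest and replicate 1 the lowest. The thick ascending limb sum was highest in replicate 3 and lowest in replicate 2. An order of 3 libraries does not tell which cells a transcript came from. The 4 B cell markers summed to 23.4 to 30.7 CPM and 32.9 to 48.5 CPM, with 1 higher by edgeR (0 without Cre- control replicate 3 or PTEC DN RAR replicate 1 or 2, and 4 without PTEC DN RAR replicate 3), 4 with pan-leukocyte scaling, and 3 by DESeq2, without a filter or with the replicate block. The part of these cells in the rise of Cd81 and Tmem119, and the part of monocytes in the fall of Folr2, Cbr2 and Maf, was not tested.

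Lymphatic endothelium also expresses Lyve1, and its markers gave a mixed picture. Ccl21a had 0 reads in all 6 libraries, but the symbol belongs to more than 1 identifier and reads that align to several places were not counted, so this sets no limit on its level. Mmrn1 was at most 0.311 CPM. Prox1, at 1.49 to 1.71 CPM in Cre- controls and 5.16 to 9.20 CPM in PTEC DN RAR mice, Flt4 and Reln rose and Pdpn, which macrophages also express, fell. The summed level of the 6 markers was 28.7 to 36.6 CPM in Cre- controls and 24.5 to 28.4 CPM in PTEC DN RAR mice, and Pdpn alone gave 23.0 to 29.1 CPM and 9.47 to 11.4 CPM of it. Of 5 dendritic cell markers, Xcr1 and Clec9a were higher and 0 lower, beside 23.6% and 17.1% of all genes. These 5 summed to 60.6 to 95.1 CPM and 86.2 to 117 CPM, and here too PTEC DN RAR replicate 2 was the highest and replicate 3 the lowest of its genotype. Of 6 NK and T cell markers 4 could be tested and 0 passed by edgeR or by DESeq2, with 0 at an unadjusted p under 0.05 in edgeR, 1 higher without PTEC DN RAR replicate 3 and 1 lower without PTEC DN RAR replicate 1, and with sums of at most 7.48 CPM.

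**Figure D5:**
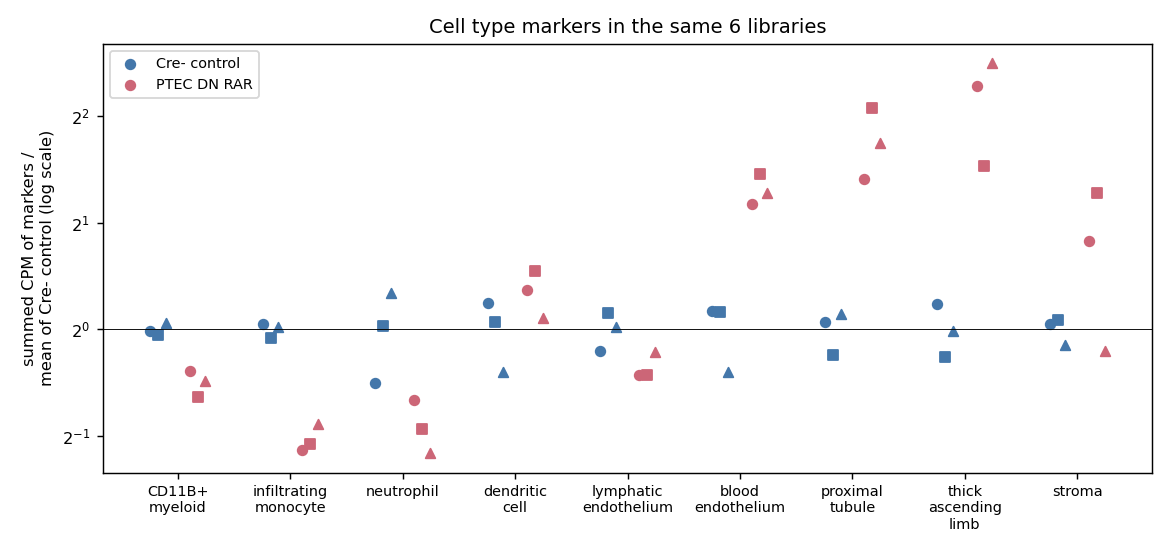
Summed CPM of the markers of 9 cell types in each library, divided by the mean of the Cre- controls, on a log scale (blue: Cre- control, red: PTEC DN RAR, shapes: replicates 1 to 3). Myeloid, monocyte and neutrophil sums are lower and blood endothelium, proximal tubule and thick ascending limb sums higher with PTEC DN RAR throughout, and the genotypes overlap for dendritic cell and stroma sums.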

How the data were processed

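RNA from CD11B+ mouse kidney cells was sequenced as 6 polyA-selected libraries. The authors deposited raw read counts per Ensembl gene, without normalization. The submitters' processing notes name GRCm38, STAR 2.5.0a, HTSeq 0.6.1, edgeR and limma. The annotation release and strand setting are not given in the sources used here. Reads aligned to more than 1 place, 42.9% to 47.8% of alignments, are outside the gene counts, as are reads without a gene (2.39% to 3.97%). The table has 46612 gene lines, and 9 lines that repeat another identifier were merged with it. Libraries of a genotype differed by a chi-square of at least 27.1 per degree of freedom, so none was a copy of another.

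After the filterByExpr filter and TMM scaling, the quasi-likelihood test of edgeR 4.0.16 (R 4.3.3) compared 3 with 3 libraries, with Benjamini-Hochberg adjustment over 15440 genes. The labels number the libraries and do not state separate animals, so p-values measure the spread between libraries, which may in part be technical. A standard error is the log2 fold change divided by the square root of F. Nearest patterns used log2 CPM with a prior count of 2. Ratios were compared by two-sided exact permutation. Replicate number entered as an alternative only. Scripts were tested on simulated data. Named genes are the members, up to 4 genes per list with the largest change that passed, and the 2 genes nearest to each member, while Hpgd, the C1q genes, Olfml3, P2ry12, Spi1, Cd44 and C3 were named after their values were seen. The members and lists were chosen with earlier results of these data known. Alternatives used DESeq2 1.42.0, limma 3.58.1 (voom), other scalings and filters, and each library left out. Figures were drawn with matplotlib 3.10.9. Coordinates are from GENCODE M21.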

Additional observations from a re-analysis of the deposited data

How the results depend on the processing

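All 8 members kept the direction of their log2 fold change under DESeq2, voom, each scaling and filter that left them in, the replicate block and each library left out. For Adgre1 the lowest value with a library left out was 0.0044, where the direction says little. The members higher numbered 1 to 2 and the members lower 3 with each library left out, while 15.2% to 23.2% of all genes were higher and 11.7% to 17.7% lower. Vsig4 passed without a filter (-2.32, adjusted p = 0.0216, edgeR) and with the replicate block (-2.42, adjusted p = 0.0336, edgeR), which made 4 members lower, where 10.8% and 16.9% of all genes were lower. A minimum of 10 counts in every library left 6 members and the same counts. Over all genes, pan-leukocyte scaling gave 4753 higher and 708 lower, against 3640 and 2636. Deviations of same-numbered libraries from their genotype means correlated by -0.01, 0.21 and 0.03, and those of other numbers by -0.18 to 0.15. With only 3 libraries per genotype these values cannot decide whether the numbers pair the libraries. The block moved the genes lower among relatives and partners from 2 to 1. With pan-leukocyte scaling the other resident macrophage genes gave 5 higher and 3 lower, and the lower genes numbered 1 among transcription factors and 1 among relatives and partners. With each library left out, the other resident macrophage genes numbered 0 to 2 higher and 5 to 8 lower, and the microglia-type genes 2 to 4 higher. The transcription factors numbered 0 to 1 higher and 2 to 3 lower, and the relatives and partners 3 to 7 higher and 1 to 2 lower. Against the summed pan-leukocyte genes in place of Adgre1, the difference in log2 ratio was 1.17 for Cd81, -0.36 for Maf, -1.35 for Cbr2 and 0.75 for Tmem119, beside 0.89, -0.64, -1.64 and 0.47. The alternatives that checked overlap under other scalings were chosen after the data were seen, and with pan-leukocyte scaling 6 members did not overlap, beside 50% of all genes. Vsig4 and Lyve1 are limited by the spread between libraries, with 36 to 237 and 90 to 369 reads in Cre- controls, and their lowest values (0 and 8 reads) were in the library with the most reads.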
